A study of Mus musculus with 18 samples.

Results

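Liver expression was described for 10 genes that carry fatty acids and lipoprotein lipid into cells or bind fatty acids inside them, Cd36, Slc27a2, Slc27a4, Slc27a5, Mfsd2a, Fabp1, Fabp2, Fabp4, Lpl and Vldlr. They were found by gene symbol, 1 line each, among the 19057 lines of the expression table, and all 10 were among the 10507 genes tested, which had an RPKM (reads scaled to gene length and to the reads of the library) of at least 1 in at least 3 livers. The study fed male ICR mice, an outbred stock, a regular diet or a high-fat diet (HFD) and asked whether gut microbiota from donors given alginate oligosaccharide (AOS, short sugar chains made from seaweed alginate) could improve lipid metabolism and male fertility on the HFD. Bulk liver RNA of 18 livers was sequenced, all taken at 10 weeks of age, 3 in each of 6 groups.

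The regular diet was given to Con mice, which had saline in place of a transplant. AOS mice, which had AOS at 10 mg/kg, were taken to have had it too, since their label names no high-fat diet. The HFD was given to HFD mice, which had saline, to HFD+AOS mice, which had AOS at 10 mg/kg, and to Con-FMT and A10-FMT mice. These last groups were given by mouth a microbiota transplant (FMT) made from the contents of the small intestine, pooled from control donors for Con-FMT and from donors given AOS at 10 mg/kg for A10-FMT, so that recipients in a group shared a single pool. The study's methods describe Con, HFD, Con-FMT and A10-FMT, and the AOS and HFD+AOS groups are known from the sample labels alone. Every comparison below that counts AOS livers as regular-diet livers rests on that reading of the AOS label. The labels do not say that each library is 1 mouse, so p-values measure the spread between these libraries.

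The liver takes up non-esterified fatty acids from the blood through membrane proteins, among them the scavenger receptor CD36 and the FATP proteins of the Slc27a family, which also join the fatty acid to coenzyme A. Inside the cell, fatty acid binding proteins (Fabp genes) keep these poorly soluble molecules in solution and carry them to where they are oxidised, stored or secreted. Fatty acids also arrive as triglyceride in lipoproteins, which lipoprotein lipase (Lpl) hydrolyses and the VLDL receptor (Vldlr) takes up, while Mfsd2a imports lysophosphatidylcholine that carries polyunsaturated fatty acids.

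Some libraries stood apart and touch the results below. Con replicate 3 lay between Con replicates 1 and 2 for 98.0% of the 148 genes that differed most between those, and AOS replicate 3 lay between the other AOS livers for 96.5% of 142 such genes. A weighted mean of their groups' other libraries came within a median log2 difference of 0.0665 of Con replicate 3 and 0.0830 of AOS replicate 3, where the same difference was 0.341 to 0.590 in the groups on the HFD. The spread of the Con and AOS groups may therefore rest on fewer than 3 independent values each, and calls that are lost without both of these libraries are named with the results. A10-FMT replicate 1 held RNA of adipocyte marker genes, described with Fabp4. Hepatocyte markers were high in every liver, with a summed RPKM of 46777 to 69823 over 6 genes. The read numbers are unknown. The relative depth estimated from sparsely read genes was 0.988 to 1.02. That estimate used only values close to a gene's lowest value, so it could not show a large difference in depth.

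Per gene length, Fabp1 was by far the most abundant of the 10 genes, with a mean of 9162 ± 1668 RPKM (SD, n = 18). It made up 86.7% to 94.2% of the summed RPKM of the 10 genes in a liver, and 0.705% to 1.71% of the RPKM of all genes. Slc27a2 followed at 396 ± 97.8 RPKM and Slc27a5 at 265 ± 26.8 RPKM, and the ranges of this pair overlapped. Fabp2 came next at 75.7 ± 19.0 RPKM, with no overlap with its neighbours in the order. Fabp4 (10.5 ± 4.69), Mfsd2a (9.98 ± 8.34), Slc27a4 (8.70 ± 0.473), Lpl (7.02 ± 2.80), Cd36 (3.18 ± 1.12) and Vldlr (1.01 ± 0.476) formed a low group in which each gene's range overlapped that of the next. Vldlr reached an RPKM of 1 in 9 of 18 livers, so its fold changes rest on the lowest levels of the list.

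**Figure D1:**
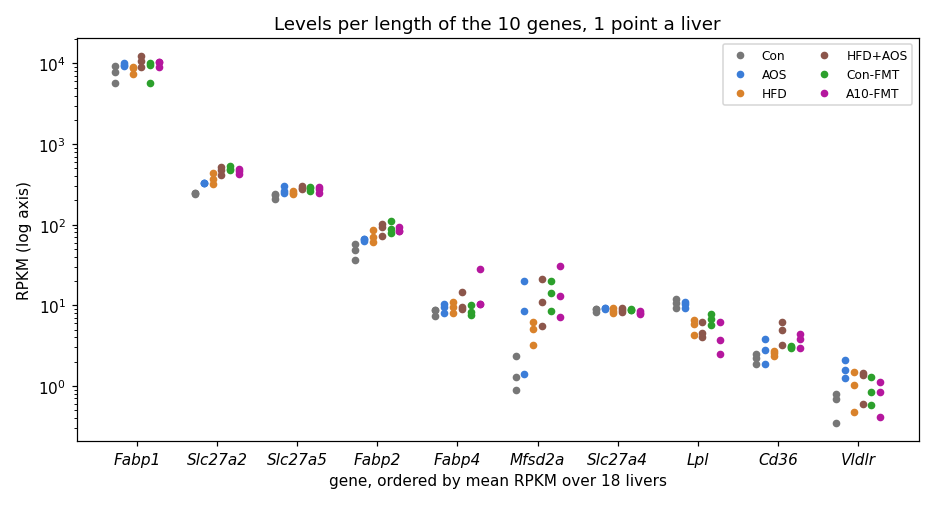
RPKM on a log axis for each of the 10 genes, ordered by mean level, with 1 point a liver and a colour for each of the 6 groups. Fabp1 lies near 9162 RPKM and Vldlr near 1.01 RPKM, and Mfsd2a has the widest vertical scatter, from 0.89 to 30.51 RPKM.

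The scatter also differed from gene to gene. Within groups, the SD corresponded to a fold of 1.04 for Slc27a4, 1.09 for Slc27a2, 1.17 for Fabp2 and 1.87 for Mfsd2a. Slc27a4 stayed between 7.87 and 9.37 RPKM in all 18 livers, a 1.19-fold range, whereas Mfsd2a covered a 34.3-fold range.

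The diet comparison held most of the calls. With the 12 livers of the 4 HFD groups set against the 6 livers of the 2 regular-diet groups, 5 of the 10 genes passed the test (limma, two-sided, Benjamini-Hochberg adjusted p under 0.05 over all genes tested), and 12.9% of all genes tested did so. Slc27a2, Fabp2, Mfsd2a and Cd36 were higher on the HFD, where 7.16% of all genes were called higher, and Lpl was lower, where 5.74% were called lower. Of the 12 HFD-fed livers, 9 also had AOS or a transplant, and no transplant was given on the regular diet, so this comparison is not one of diet alone. Slc27a2, Fabp2 and Lpl were called under all 25 alternative settings tried for this comparison, Mfsd2a under 13 and Cd36 under 6. The median fold change of the 10 genes was 0.20 on the log2(RPKM + 1) scale, against 0.01 for all genes tested. All fold changes below are on that scale, which understates changes of genes with a low RPKM.

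**Figure D2:**
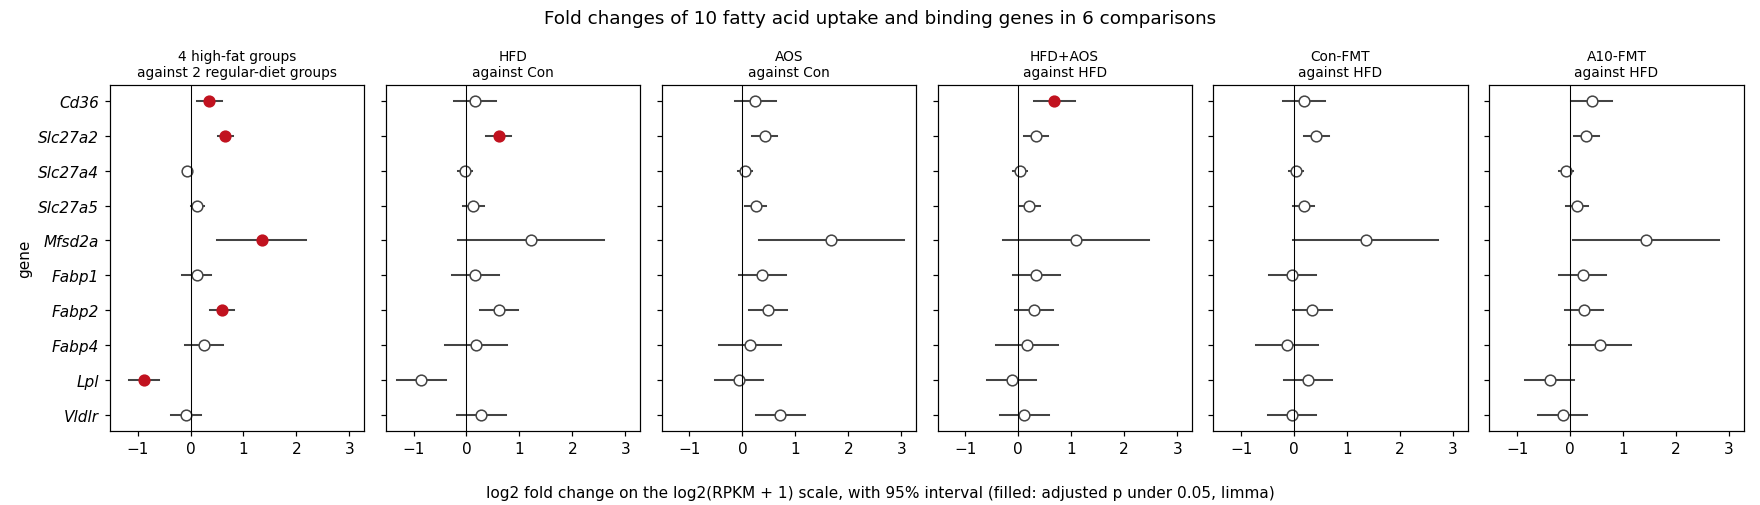
Log2 fold changes of the 10 genes on the log2(RPKM + 1) scale in 6 comparisons, with 95% intervals from limma and filled points where the adjusted p was under 0.05. The diet comparison has 5 filled points, HFD against Con has Slc27a2 alone, HFD+AOS against HFD has Cd36 alone, and the other panels have none.

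Slc27a2 encodes FATP2, a liver fatty acid transporter and very-long-chain acyl-CoA synthetase. Its RPKM was 236.89, 248.25 and 248.14 in Con, 325.06, 332.94 and 324.50 in AOS, and 436.30, 319.55 and 369.96 in HFD. It was 413.78, 519.40 and 481.16 in HFD+AOS, 529.66, 492.22 and 472.18 in Con-FMT, and 464.16, 497.39 and 424.11 in A10-FMT. Con livers were the lowest of all, AOS livers lay above every Con liver, and 11 of 12 HFD-fed livers lay above every regular-diet liver. The share of all genes tested with such an order was not counted. The level was 452 ± 62.1 RPKM (SD, n = 12) on the HFD and 286 ± 45.8 (n = 6) on the regular diet, a log2 fold change of 0.66 (SE 0.07, 95% interval 0.52 to 0.80, limma adjusted p = 2.96e-05). It had the smallest p of the 10 genes, and the fold change stayed between 0.63 and 0.69 under every alternative.

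Slc27a2 (chromosome 2, 126552407-126588243, plus strand, GRCm38) shares 13.0% of its 35-base stretches with the gene model Gm26697, with both strands counted together. The counting is not stated to have used strand, so reads from these stretches cannot be assigned to a gene with certainty. No such stretch was shared between any of the 10 genes, and apart from Slc27a2 the sole gene with stretches shared with other genes was Lpl, with 2.11%.

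Fabp2, the fatty acid binding protein best known from the small intestine, was higher on the HFD as well (chromosome 3, 122895072-122899506, plus strand). Its RPKM was 36.57, 57.40 and 48.38 in Con, 63.25, 67.26 and 66.47 in AOS, and 60.99, 86.09 and 70.86 in HFD. In the other HFD-fed groups it was 93.08, 72.89 and 101.37 in HFD+AOS, 112.54, 77.99 and 87.49 in Con-FMT, and 82.61, 83.31 and 93.48 in A10-FMT. All 3 AOS livers exceeded every Con liver, and 11 of 12 HFD-fed livers exceeded every regular-diet liver, again with no count of such genes overall to set beside it. The difference between the diets was 0.60 (SE 0.10, 95% interval 0.38 to 0.82, limma adjusted p = 0.00166), from 56.6 ± 12.04 RPKM (SD, n = 6) to 85.2 ± 14.0 (n = 12).

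The intestine-specific regulators Cdx1 and Cdx2 were at 0 in all 18 livers, and Vil1, a structural protein of the intestinal brush border, was at most 0.14 RPKM. Sis and Alpi, digestive enzymes of that border, reached at most 0.01 and 0.05 RPKM. Of the 6 enterocyte markers, Apoa4 alone was abundant, an apolipoprotein that mouse liver also expresses. It was higher on the HFD by 0.87 (limma adjusted p = 0.00797, and 0.0552 without Con replicate 3 and AOS replicate 3), and set the summed level of that list, 183 to 385 RPKM on the regular diet and 294 to 940 RPKM on the HFD. The part of intestinal RNA in the Fabp2 difference was not tested.

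Lpl (chromosome 8, 68880491-68907448, plus strand) encodes lipoprotein lipase, the enzyme that releases fatty acids from circulating triglyceride and that is low in adult hepatocytes. It was the sole gene of the 10 whose 12 HFD-fed livers and 6 regular-diet livers did not overlap, a separation seen in 0.628% of all genes tested. Its RPKM was 9.22, 12.05 and 10.72 in Con and 9.17, 10.23 and 10.82 in AOS. It was 4.23, 5.77 and 6.52 in HFD, 4.04, 4.57 and 6.27 in HFD+AOS, 5.62, 6.81 and 7.87 in Con-FMT, and 6.24, 2.48 and 3.70 in A10-FMT. The highest HFD-fed liver, at 7.87 RPKM, was below the lowest regular-diet liver, at 9.17 RPKM. Lpl fell by 0.88 on the log2 scale (SE 0.13, 95% interval -1.16 to -0.60, limma adjusted p = 0.000527), from 10.4 ± 1.09 RPKM (SD, n = 6) to 5.34 ± 1.55 (n = 12).

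Macrophages also express Lpl, and markers of Kupffer cells, the macrophages of the liver, moved in the same direction. All 7 Kupffer cell and macrophage markers had a negative fold change between the diets. Of the 7, 4 passed the test, where 5.74% of all genes were called lower. These were Clec4f, Vsig4, Cd68 and Marco, with limma adjusted p from 0.0122 to 0.0305. Without Con replicate 3 and AOS replicate 3 none of these 4 was called, with adjusted p of 0.0919 for Clec4f, 0.1201 for Vsig4, 0.134 for Cd68 and 0.166 for Marco. Vsig4, Cd68 and Marco also lost their calls on the removal of AOS replicate 2 or 3 or Con replicate 1 or 3 alone, and Cd68 on that of Con replicate 2, with adjusted p of 0.0511 to 0.0961. Their summed RPKM was 59.2 to 88.3 in Con and 71.8 to 102 in AOS, against 44.6 to 98.2 in HFD, 65.9 to 73.5 in HFD+AOS, 44.4 to 62.2 in Con-FMT and 46.9 to 57.4 in A10-FMT. The summed levels overlapped between the diets, and HFD replicate 3, at 98.2 RPKM, exceeded all 3 Con livers while its Lpl was 6.52 RPKM, below every regular-diet liver. In bulk liver, fewer cells of a type and less RNA per cell cannot be told apart, and the part of these markers in the Lpl difference was not tested.

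**Figure D3:**
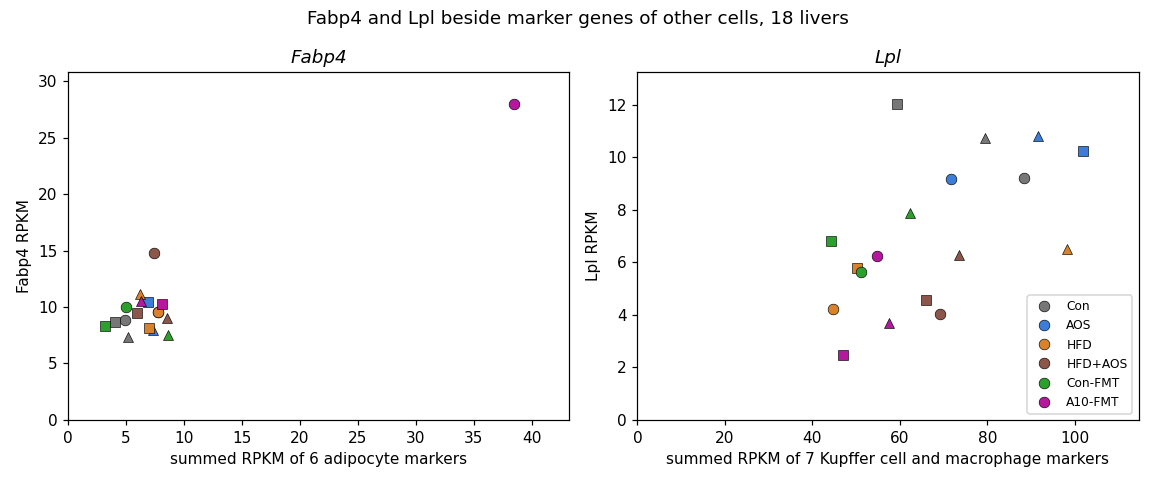
Fabp4 RPKM against the summed RPKM of 6 adipocyte markers (left) and Lpl RPKM against the summed RPKM of 7 Kupffer cell and macrophage markers (right), 1 point a liver, with colours for groups and circle, square and triangle for replicates 1, 2 and 3. On the left A10-FMT replicate 1 lies alone at 38.4 and 28.02 RPKM, and on the right all 6 regular-diet livers lie above the HFD-fed livers in Lpl while their marker sums overlap.

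Mfsd2a (chromosome 4, 122946850-122961188, minus strand), the importer of lysophosphatidylcholine, was the most variable of the 10 genes. Its RPKM was 0.89, 2.36 and 1.28 in Con, 19.98, 1.41 and 8.44 in AOS, and 3.17, 6.22 and 5.05 in HFD. It was 10.99, 5.58 and 21.31 in HFD+AOS, 14.28, 8.41 and 19.80 in Con-FMT, and 7.10, 12.90 and 30.51 in A10-FMT. Con livers were the lowest group, every HFD-fed liver lay above every Con liver, and the AOS livers ran from the range of Con into that of the HFD-fed livers. The share of all genes tested that separate HFD-fed from Con livers was not counted. The diet difference was 1.34 (SE 0.40, 95% interval 0.50 to 2.18, limma adjusted p = 0.0362). It lost its call on the removal of AOS replicate 2 (0.92, adjusted p = 0.105), Con replicate 1 (0.0893), Con replicate 3 (0.0822) or AOS replicate 3 (0.0623). The removal of HFD replicate 2, HFD+AOS replicate 1 or 3, or Con-FMT replicate 1 or 3 also ended it, with adjusted p of 0.0510 to 0.0555. Without Con replicate 3 and AOS replicate 3 together the call was lost as well.

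Cd36 (chromosome 5, 17781690-17888801, minus strand), the membrane receptor for long-chain fatty acids and oxidised lipoproteins, was low in every liver. Its RPKM was 2.45, 2.22 and 1.85 in Con, 3.79, 1.87 and 2.82 in AOS, and 2.59, 2.34 and 2.67 in HFD. In the other groups it was 6.28, 3.20 and 4.95 in HFD+AOS, 3.15, 3.01 and 2.91 in Con-FMT, and 4.37, 3.78 and 2.98 in A10-FMT. HFD+AOS held the 2 highest livers, the HFD livers overlapped Con, and the diets overlapped. The mean of the HFD group, 2.53 RPKM, was below that of AOS, 2.83 RPKM, and between HFD and Con Cd36 had a limma adjusted p of 0.718. The diet difference of 0.36 (SE 0.11, 95% interval 0.12 to 0.60) had a limma adjusted p of 0.0498, at the edge of the threshold. Of the removals of a single library, those of AOS replicate 1, HFD+AOS replicate 2 or A10-FMT replicate 3 kept it under 0.05, and those of the other 15 did not, with adjusted p up to 0.157. The call was also lost without Con replicate 3 and AOS replicate 3 together.

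**Figure D4:**
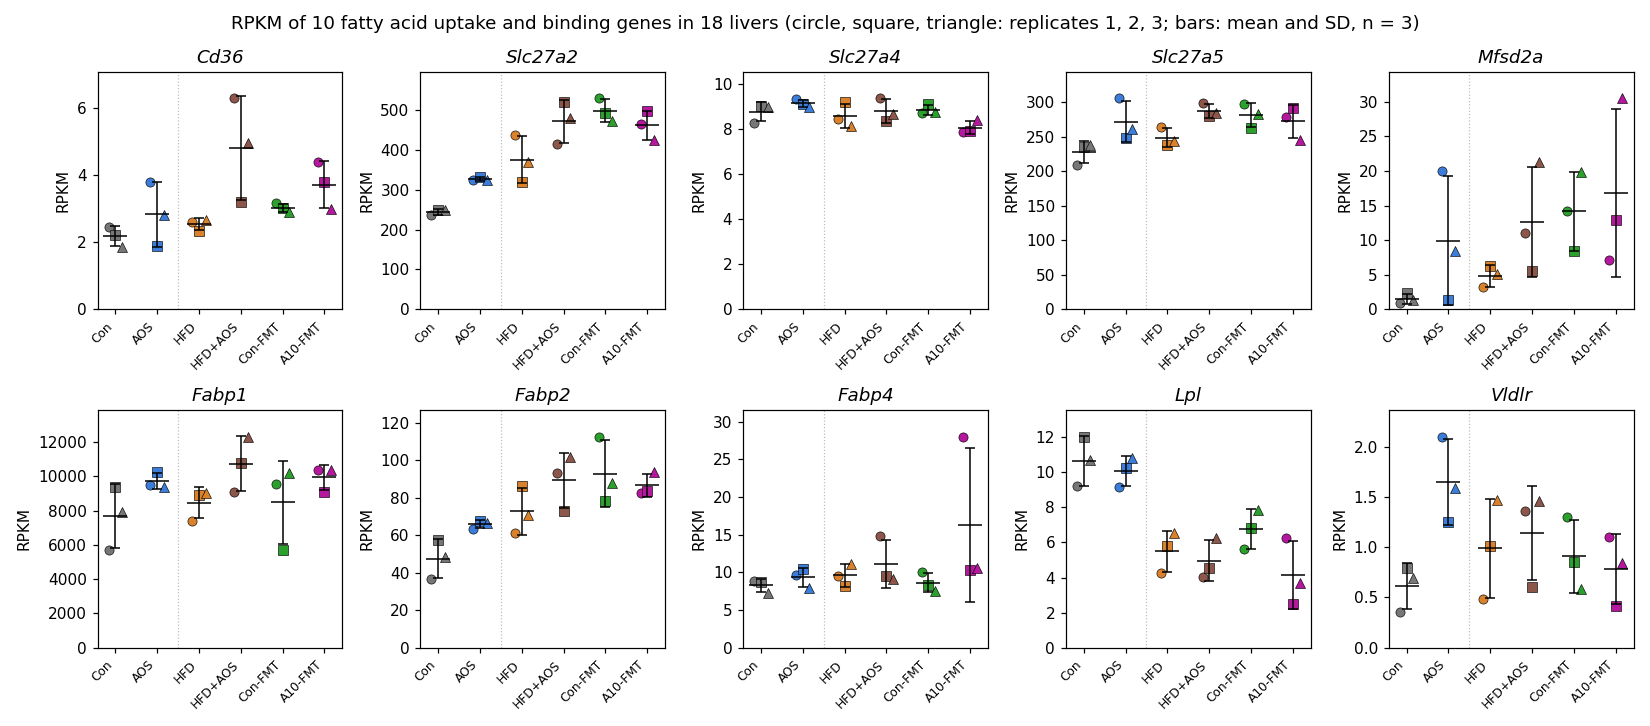
RPKM of each of the 10 genes in the 18 livers by group, with circle, square and triangle for replicates 1, 2 and 3 and bars for the mean and SD (n = 3), and the regular-diet groups to the left of the dotted line. Slc27a2 and Fabp2 are higher and Lpl is lower to the right of the line, and Slc27a4 stays between 7.87 and 9.37 RPKM.

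The other 5 genes were not called between the diets, Fabp1, Fabp4, Slc27a4, Slc27a5 and Vldlr. Slc27a5, which encodes FATP5, a liver transporter that also activates bile acids, had a fold change of 0.13 (SE 0.06, 95% interval 0.01 to 0.25, limma adjusted p = 0.152). Its group means ran from 227 ± 15.7 RPKM in Con (SD, n = 3) to 287 ± 9.93 in HFD+AOS, with 272 ± 29.96 in AOS, 248 ± 13.8 in HFD, 281 ± 17.3 in Con-FMT and 272 ± 23.9 in A10-FMT. The fold changes of the other 4 lay between -0.09 and 0.26, with 95% intervals that reached from -0.38 to 0.62.

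Fabp1, the main fatty acid binding protein of the hepatocyte, had means of 7657 ± 1865 RPKM in Con and 9720 ± 486 in AOS (SD, n = 3). On the HFD its means were 8452 ± 916 in HFD, 10739 ± 1609 in HFD+AOS, 8472 ± 2445 in Con-FMT and 9930 ± 751 in A10-FMT. The lowest livers were Con replicate 1 at 5688.03 and Con-FMT replicate 2 at 5675.31 RPKM, so the scatter within these groups was as large as the differences between groups. Slc27a4, which encodes the widely expressed transporter FATP4, had means of 8.77 ± 0.416 RPKM in Con, 9.15 ± 0.166 in AOS, 8.59 ± 0.548 in HFD, 8.81 ± 0.515 in HFD+AOS, 8.85 ± 0.217 in Con-FMT and 8.05 ± 0.292 in A10-FMT.

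Between HFD and Con alone, Slc27a2 was called, at 0.61 (SE 0.11, 95% interval 0.37 to 0.84, limma adjusted p = 0.0317), in a comparison where 0.381% of all genes were called. Its call was lost without Con replicate 1 (adjusted p = 0.169), Con replicate 3 (0.136), AOS replicate 3 (0.0547), HFD replicate 1 (0.0709) or HFD replicate 3 (0.0743), and without Con replicate 3 and AOS replicate 3 together (0.220). Fabp2 differed by 0.61 (SE 0.17, 95% interval 0.25 to 0.97, limma adjusted p = 0.123), and by 0.76 without Con replicate 2 (adjusted p = 0.0441). Lpl differed by -0.85 (SE 0.21, 95% interval -1.31 to -0.40, limma adjusted p = 0.0985), with an adjusted p of 0.0453 when A10-FMT replicate 1, outside the comparison, was left out of the shared fit. The HFD livers lay wholly above Con for Fabp2, Slc27a2 and Mfsd2a and wholly below for Lpl, 4 genes of the 10, where 18.5% of all genes tested did not overlap. The remaining 7 fold changes lay between -0.03 and 1.22, with intervals reaching from -0.40 to 2.59.

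The transplants were compared with the HFD group, which these comparisons share, and none of the 10 genes was called by limma in either. Between A10-FMT and HFD, 6.6% of all genes were called, and 3 of the 10 had an unadjusted p under 0.05 against 24.5% of all genes. Slc27a2 differed by 0.31 (SE 0.11, 95% interval 0.08 to 0.54, limma adjusted p = 0.0953), and by 0.42 (adjusted p = 0.0241) without HFD replicate 1. Cd36 differed by 0.41 (SE 0.18, 95% interval 0.01 to 0.80, limma adjusted p = 0.191) and Mfsd2a by 1.43 (SE 0.65, 95% interval 0.05 to 2.80, limma adjusted p = 0.189). All 3 A10-FMT livers were above all 3 HFD livers for Cd36, Fabp1 and Mfsd2a, where 23.4% of all genes tested did not overlap. The other 7 fold changes lay between -0.39 and 0.57, with intervals reaching from -0.85 to 1.15.

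Between Con-FMT and HFD, 0.00952% of all genes were called, and 1 of the 10 had an unadjusted p under 0.05 against 6.63% of all genes. This was Slc27a2, which differed by 0.42 (SE 0.11, 95% interval 0.19 to 0.65, limma adjusted p = 0.489). Cd36, Slc27a2 and Mfsd2a lay wholly above HFD in Con-FMT, where 10.1% of all genes tested did not overlap. The other 9 fold changes lay between -0.14 and 1.35, with intervals reaching from -0.72 to 2.72.

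Slc27a2, Fabp2 and Lpl, the genes with the clearest diet difference, were thus not called as moving toward the Con level in either transplant group. Slc27a2 was 375 ± 58.6 RPKM in HFD, 498 ± 29.2 in Con-FMT and 462 ± 36.7 in A10-FMT (SD, n = 3), against 244 ± 6.53 in Con. Fabp2 was 72.6 ± 12.6 RPKM in HFD, 92.7 ± 17.8 in Con-FMT and 86.5 ± 6.08 in A10-FMT, against 47.5 ± 10.4 in Con. Lpl was 5.51 ± 1.17 RPKM in HFD, 6.77 ± 1.13 in Con-FMT and 4.14 ± 1.92 in A10-FMT, against 10.7 ± 1.42 in Con.

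Between the transplant groups themselves, none of the 10 genes was called by limma, where 1.68% of all genes were, and 2 had an unadjusted p under 0.05 against 16.4% of all genes. Lpl was lower in A10-FMT than in Con-FMT by a log2 fold change of -0.65 (SE 0.21, 95% interval -1.11 to -0.20, limma adjusted p = 0.144). Without A10-FMT replicate 1 the Lpl difference was -0.93 (adjusted p = 0.0315), and the adjusted p was 0.0833 when Con replicate 3 and AOS replicate 3 were left out as well. Fabp4 lay wholly above and Slc27a4 wholly below Con-FMT in A10-FMT, where 18.3% of all genes tested did not overlap. The 8 fold changes other than those of Lpl and Fabp4 lay between -0.12 and 0.27, with intervals reaching from -1.29 to 1.46.

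Fabp4, the binding protein of adipocytes and macrophages, had an RPKM of 28.02, 10.30 and 10.51 in A10-FMT, against 9.98, 8.34 and 7.48 in Con-FMT. In the other groups it was 8.84, 8.64 and 7.31 in Con, 9.58, 10.43 and 7.92 in AOS, 9.53, 8.11 and 11.11 in HFD, and 14.78, 9.44 and 9.04 in HFD+AOS. A10-FMT replicate 1 was the highest of the 18 livers, and the other A10-FMT livers lay close to the rest. The difference between A10-FMT and Con-FMT was 0.71 (SE 0.27, 95% interval 0.12 to 1.29, limma adjusted p = 0.214), and 0.26 (adjusted p = 0.628) without A10-FMT replicate 1.

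In the same library the 6 adipocyte markers summed to 38.4 RPKM, where the other 17 livers had 3.19 to 8.59. Adiponectin (Adipoq), the defining adipocyte hormone, was at 4.42 RPKM there, at most 0.39 in the other A10-FMT livers and at most 0.11 in the other groups. The adipocyte protease Cfd was at 22.05 RPKM there, at most 1.34 in the other A10-FMT livers and at most 0.32 in the other groups. Low levels of these markers were thus not confined to replicate 1 within A10-FMT. Adipoq, Plin1 and Lep were at 0 in every Con, AOS and HFD liver. Within A10-FMT, replicate 1 was also the highest liver for Lpl, at 6.24 RPKM, and for Cd36, at 4.37 RPKM. The part of the adipocyte markers in the Fabp4, Lpl and Cd36 levels of that library was not tested.

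AOS on the regular diet gave higher values for several of the 10 genes, none of which was called by limma, where 0.133% of all genes were. An unadjusted p under 0.05 was found for 5 of the 10, against 15.5% of all genes. Fabp2, Slc27a2, Slc27a5 and Vldlr lay wholly above Con in the AOS livers, where 24.7% of all genes tested did not overlap. Slc27a2 differed by 0.42 (SE 0.11, 95% interval 0.19 to 0.65, limma adjusted p = 0.113) and Fabp2 by 0.48 (SE 0.17, 95% interval 0.12 to 0.84, limma adjusted p = 0.196). Slc27a5 differed by 0.25 (SE 0.09, 95% interval 0.05 to 0.45, limma adjusted p = 0.217) and Mfsd2a by 1.68 (SE 0.65, 95% interval 0.31 to 3.05, limma adjusted p = 0.229). None of these reached an adjusted p under 0.05 under any of 26 alternative settings. The 5 genes with an unadjusted p above 0.05 had fold changes between -0.07 and 0.37, with intervals reaching from -0.53 to 0.82.

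Vldlr, the receptor for very-low-density lipoprotein, had its highest level in these AOS livers. Its RPKM was 2.10, 1.25 and 1.59 in AOS, against 0.35, 0.79 and 0.69 in Con. It was 0.48, 1.01 and 1.47 in HFD, 1.36, 0.60 and 1.46 in HFD+AOS, 1.30, 0.85 and 0.58 in Con-FMT, and 1.10, 0.41 and 0.84 in A10-FMT. The AOS livers were above all Con livers but overlapped the HFD-fed ones. The difference from Con was 0.72 (SE 0.22, 95% interval 0.25 to 1.18, limma adjusted p = 0.158).

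On the HFD, AOS went with higher Cd36. HFD+AOS livers had 4.81 ± 1.54 RPKM (SD, n = 3) and HFD livers 2.53 ± 0.172, with no overlap, and the difference was 0.68 (SE 0.18, 95% interval 0.29 to 1.07, limma adjusted p = 0.0329). Cd36 was the sole gene of the 10 called in this comparison, where 8.75% of all genes were. The call was lost without HFD replicate 2 (adjusted p = 0.0988), HFD replicate 3 (0.0842), HFD+AOS replicate 1 (0.154, at a fold change of 0.50) or HFD+AOS replicate 3 (0.0837). It was also lost without Con replicate 3 and AOS replicate 3 together. Macrophages and endothelial cells also express Cd36. The 7 macrophage markers summed to 65.9 to 73.5 RPKM in HFD+AOS and 44.6 to 98.2 in HFD, the 7 endothelial markers to 40.7 to 46.9 and 39.6 to 41.4, and none of the 14 genes was called. The part of these cells in the Cd36 difference was not tested.

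Slc27a2 differed between HFD+AOS and HFD by 0.33 (SE 0.11, 95% interval 0.10 to 0.56, limma adjusted p = 0.0670), and by 0.45 (adjusted p = 0.0170) without HFD replicate 1. Slc27a5 differed by 0.21 (SE 0.09, 95% interval 0.01 to 0.41, limma adjusted p = 0.170). Cd36, Fabp1 and Slc27a5 lay wholly above HFD in HFD+AOS, where 27.2% of all genes tested did not overlap. The 7 genes with a larger p had fold changes between -0.13 and 1.09, with intervals reaching from -0.58 to 2.46. Whether the effect of AOS differed between the diets was tested as an interaction, in which 0.504% of all genes were called and none of the 10, with 0 of them at an unadjusted p under 0.05 against 14.7% of all genes. The 10 interaction values lay between -0.60 and 0.44, with intervals reaching from -2.53 to 1.35.

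When all 6 groups were compared at once, 5 of the 10 genes were called, against 14.8% of all genes. The limma adjusted p was 0.000108 for Slc27a2, 0.00378 for Lpl, 0.00711 for Fabp2, 0.0380 for Cd36 and 0.0477 for Mfsd2a. Slc27a2 and Lpl were called under all 25 alternatives of this test, Fabp2 under 23, Cd36 under 9 and Mfsd2a under 8. Without Con replicate 3 and AOS replicate 3 together, the calls of Fabp2, Cd36 and Mfsd2a were lost.

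The wider pathway was examined through lists of further genes. Of 6 other binding proteins tested, 3 were called between the diets, where 12.9% of all genes were. Fabp5, the epidermal-type binding protein, was lower on the HFD by a log2 fold change of -1.12 (limma adjusted p = 0.0200), and Dbi, the acyl-CoA binding protein, by -0.48 (0.0127), while Acbd5, a peroxisomal acyl-CoA binding protein, was higher by 0.22 (0.0232). Without Con replicate 3 and AOS replicate 3 none of these was called, with adjusted p of 0.106 for Fabp5, 0.0608 for Dbi and 0.0913 for Acbd5. Fabp5 also lost its call without AOS replicate 2 (0.0580) or Con replicate 3 (0.0528), and Acbd5 without AOS replicate 1, Con replicate 1 or Con replicate 3 (0.0663 to 0.0722). Fabp5 went from 54.9 ± 9.03 RPKM (SD, n = 3) in Con and 73.5 ± 11.5 in AOS to 51.4 ± 27.7 in HFD, 29.9 ± 23.6 in HFD+AOS, 24.3 ± 12.1 in Con-FMT and 26.8 ± 8.99 in A10-FMT. The diet changes of Fabp2 and Fabp5 were thus of opposite sign, and the HFD group itself overlapped Con for Fabp5.

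Of 8 genes of fatty acid transport and activation, 1 was called between the diets, a share near the 12.9% of all genes. Acsl4, which activates arachidonic acid in particular, was lower on the HFD, at -0.34 (limma adjusted p = 0.0294), and was called under 18 of 25 alternatives. The call was lost without AOS replicate 2 or 3 or Con replicate 1 or 2 (0.0601 to 0.0865) and without Con replicate 3 and AOS replicate 3 together (0.123).

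Of 13 genes of lipoprotein uptake and lipase control, 3 were called between the diets, where 12.9% of all genes were. All 3 were higher on the HFD, where 7.16% of all genes were called higher. Scarb1, the receptor for high-density lipoprotein, was higher by 0.51 (limma adjusted p = 0.0163), the endothelial lipase Lipg by 0.58 (0.0417) and Angptl4, a secreted inhibitor of lipoprotein lipase, by 0.28 (0.0428). For Angptl4 the HFD-fed means were higher than that of Con but not that of AOS, as given below. None of the 3 was called without Con replicate 3 and AOS replicate 3, with adjusted p of 0.0976 for Scarb1, 0.141 for Lipg and 0.154 for Angptl4. Scarb1 was called under 21 of 25 alternatives, and also lost its call without AOS replicate 2 (0.0540) or Con replicate 1 (0.0504). Lipg was called under 12 of 25 and Angptl4 under 9, with adjusted p up to 0.127 and 0.129 on the removal of a single library. Of those removals, Lipg kept its call only on that of AOS replicate 1, HFD replicate 2, HFD+AOS replicate 1 or 2, A10-FMT replicate 1, Con-FMT replicate 3 or Con replicate 2. Angptl4 kept it only on that of HFD replicate 3, HFD+AOS replicate 1, A10-FMT replicate 3, Con-FMT replicate 1 or Con replicate 2. Scarb1 had means of 52.0 ± 6.06 RPKM (SD, n = 3) in Con, 59.9 ± 8.38 in AOS, 63.7 ± 21.5 in HFD, 77.03 ± 22.2 in HFD+AOS, 96.0 ± 8.95 in Con-FMT and 91.7 ± 2.42 in A10-FMT. The transplant groups were thus the highest for Scarb1, and the HFD livers overlapped Con.

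Angptl4 was also called between HFD and Con, at 0.90 (limma adjusted p = 0.0240), and between AOS and Con, at 1.08 (0.0103). The first call was lost without HFD replicate 2 (0.0580), Con replicate 1 (0.107) or Con replicate 3 (0.121), and without Con replicate 3 and AOS replicate 3 together (0.194). The second was lost without AOS replicate 3 (0.0869), Con replicate 1 (0.0844) or Con replicate 3 (0.0811), and without Con replicate 3 and AOS replicate 3 together (0.448). In AOS livers Angptl4 lay wholly above Con, where 24.7% of all genes tested did not overlap, while Lpl overlapped Con. These are RNA levels, and a bearing of Angptl4 on lipoprotein lipase was not tested. Angptl4 was 21.2 ± 3.87 RPKM (SD, n = 3) in Con and 45.5 ± 0.524 in AOS, where Lpl was 10.7 ± 1.42 and 10.1 ± 0.836. On the HFD, Angptl4 was 40.02 ± 3.91 in HFD, 37.3 ± 4.62 in HFD+AOS, 31.0 ± 4.95 in Con-FMT and 45.1 ± 6.35 in A10-FMT. The AOS mean was thus above that of every HFD-fed group, and the pooled diet difference was one from Con alone.

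Of 14 genes known as targets of PPAR-alpha, the fatty acid sensing nuclear receptor of the hepatocyte, 10 were higher and 4 lower on the HFD. Of these, 6 were called higher and 1 called lower, where 7.16% and 5.74% of all genes were. The median fold change of the 14 genes was 0.41, against 0.01 for all genes tested. Cpt1a, the gate of mitochondrial fatty acid oxidation, was higher by 0.70 (limma adjusted p = 4.42e-05) and the regulator Creb3l3 by 0.45 (0.00110). Pdk4, an inhibitor of glucose oxidation and the 1 gene called lower, differed by -0.72 (0.00401) and is named here after its values were seen. Its RPKM was 2.39 ± 0.525 (SD, n = 3) in Con, 3.37 ± 0.522 in AOS and 3.16 ± 0.846 in HFD, against 0.88 ± 0.281 in HFD+AOS, 1.40 ± 0.524 in Con-FMT and 0.693 ± 0.640 in A10-FMT. The HFD group overlapped Con and its mean was the higher of these, so the lower level was that of the HFD-fed groups with AOS or a transplant. Of the 2 tested genes of lipid storage linked to PPAR-gamma, none was called between the diets.

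In the other comparisons few genes of these lists were called. The PPAR-alpha list gave 1 gene called higher between HFD and Con, where 0.381% of all genes were called. This was the hormone Fgf21 at 1.44 (limma adjusted p = 0.0283). Between A10-FMT and HFD, 4 genes of the list were called lower, where 6.6% of all genes were called. The first 3 by p were Pdk4 at -1.34 (limma adjusted p = 0.00293), Fgf21 at -1.25 (0.00809) and Cyp4a14, a fatty acid hydroxylase, at -2.84 (0.0384). Fgf21 was also lower in A10-FMT than in Con-FMT, at -1.47 (0.00551). Between HFD+AOS and HFD, Cpt1a was higher by 0.69 (0.00388) and Pdk4 lower, at -1.13 (0.00826).

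Several of these calls depended on the libraries. Fgf21 between HFD and Con was called under 17 of 26 alternatives. It was lost without AOS replicate 3, HFD replicate 1, HFD replicate 3, Con replicate 1 or Con replicate 3 (0.0527 to 0.155) and without Con replicate 3 and AOS replicate 3 together (0.205). Cyp4a14 was called under 16 of 26. It was lost without any 1 HFD liver, A10-FMT replicate 1 or 2, AOS replicate 3 or Con replicate 3 (0.0527 to 0.144) and without the last pair together (0.0732). Pdk4 and Fgf21 between A10-FMT and HFD, Fgf21 between A10-FMT and Con-FMT, and Cpt1a between HFD+AOS and HFD kept their calls on the removal of any single library. These 4 calls were lost when only the groups compared were fitted, with adjusted p of 0.0738, 0.0635, 0.105 and 0.0540, and all but that of Cpt1a also without Con replicate 3 and AOS replicate 3 and A10-FMT replicate 1 (0.0507, 0.0822 and 0.0833).

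The genes whose levels were most alike those of the 10 were ranked by Pearson's r over the 18 livers, as a description, since libraries of a group share diet and treatment. For Slc27a2 they were Nox4 (r = 0.948), Eci2 (0.946) and Mug1 (0.938), of which Eci2 is an enzyme of fatty acid oxidation. For Fabp2 they were Acadl (0.939), Acads (0.926) and Bdh1 (0.919), enzymes of fatty acid oxidation and ketone body metabolism. For Fabp4 the highest r values were the lowest of any of the 10 genes, with Gsn (0.762), Col3a1 (0.760) and Rab20 (0.752). For Cd36 the first was Tnfsf10 (0.898), for Lpl Pcgf2 (0.871) and for Mfsd2a Ap3m1 (0.901). Among the 10 genes, the highest r joined Fabp2 with Slc27a2 (0.79) and with Mfsd2a (0.78), and the lowest was between Slc27a2 and Lpl (-0.70), in the same 18 livers.

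Promoter sequences, 250 bases before to 50 after a transcription start, were found in RefSeq (GRCm38.p6) for 7 of the 10 genes, and Fabp4, Slc27a5 and Lpl had no entry. PPAR-alpha binds a direct repeat of AGGTCA-like elements with 1 base between them (DR1). It was searched on both strands as a pair of AGGNCA with any 1 base between, which 0.381% of 32851 promoters held. Of the 7 genes, Fabp1 alone held this repeat, at positions -67 to -55 from its start, followed by a TATA box (TATAAA, on the gene's strand, in 8.32% of promoters). For Cd36, Fabp1, Slc27a2 and Vldlr, a RefSeq start lies downstream of the GENCODE gene start. By GENCODE the Fabp1 repeat ends just before the gene and the TATA box lies inside it. The single element AGGTCA, found in 16.3% of promoters on either strand, was present in Cd36, Fabp1, Mfsd2a and Slc27a2, and in Fabp1 one of its sites overlaps the repeat. By GENCODE the sites of Cd36 and Slc27a2 and the other Fabp1 site lie inside their genes. The stretches around the match are shown for Fabp1, which was not called between the diets, and for Slc27a2 and Mfsd2a, which were, with the motif in capitals (TGACCT is AGGTCA read on the other strand) and the gene's strand read 5′ to 3′.
Fabp1, DR1, chr6:71199782-71199854, plus strand: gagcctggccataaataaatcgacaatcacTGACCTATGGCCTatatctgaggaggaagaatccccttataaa
Slc27a2, single AGGTCA element, chr2:126552774-126552839, plus strand: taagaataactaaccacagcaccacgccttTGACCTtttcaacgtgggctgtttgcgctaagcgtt
Mfsd2a, single AGGTCA element, chr4:122961366-122961431, minus strand: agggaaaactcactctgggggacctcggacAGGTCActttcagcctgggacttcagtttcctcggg
The single element lies at positions -220 to -215 in Slc27a2, where it is read on the other strand, and -213 to -208 in Mfsd2a. Fabp2, the other gene higher on the HFD in every setting, held neither the repeat nor the single element in this window. The letters CACGTG (E-box, in 7.15% of promoters) were in none of the 7. The matches are letters in a window and show no binding.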

How the data were processed

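Liver RNA-seq of 18 livers was used, with groups taken from the sample labels. The deposited values are RPKM made by the authors and given to 2 decimals. The study's methods name SOAPaligner 2.20 for mapping to reference genes, the submitters' processing notes name Bowtie 0.12.2 and mm10, and which aligner gave these values is not settled by the sources. The annotation and strandedness are not given in the sources used here. The test covered the 10507 genes, of 17109 above 0 anywhere, that reached an RPKM of 1 in 3 or more libraries. The authors' test, DEGseq, needs read numbers, so values were taken as log2(RPKM + 1) and fitted with limma 3.58.1 in R 4.3.3 (lmFit, eBayes with trend) with a mean for each of 6 groups. Benjamini-Hochberg adjustment was made separately for every comparison, and the fit was tested on simulated data. Low values carry an unknown counting error, because the depth is unknown. RPKM is a share of a library, so a rise of abundant genes lowers the rest.

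The 10 genes, the other lists and the marker lists were chosen with earlier results of these data known. Fold changes are given for the 10 genes where the unadjusted p was under 0.05, and otherwise as ranges. Of each other list, at most 3 called genes a comparison, those with the smallest p, are named. The values of 1 gene that this rule names are not reported here. Plin2 is on 2 lines and was left out. No pairing of livers by replicate number was seen over all genes together. Correlations of same-numbered libraries were -0.177 to 0.225, with 0 of 6 comparisons having all above 0.1. Gene places are from GENCODE M21 (GRCm38) and promoters from RefSeq. The alternatives were equal library medians, 0.1 as pseudocount, testing every gene above 0, fitting the compared groups alone, a replicate block, no trend, each library left out, and Con replicate 3 with AOS replicate 3 left out. Leaving out A10-FMT replicate 1 as well was chosen after seeing the data.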

Additional observations from a re-analysis of the deposited data

Results flagged for a closer look

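The response of Angptl4, the inhibitor of lipoprotein lipase, to AOS differed between the diets. On the regular diet its RPKM was 17.31, 25.04 and 21.28 in Con and 45.08, 46.09 and 45.34 in AOS, with every AOS liver above every Con liver. Between these groups 24.7% of all genes tested did not overlap. On the HFD it was 39.36, 44.21 and 36.48 in HFD and 33.06, 36.51 and 42.20 in HFD+AOS, which overlapped. The effect of AOS on the HFD minus that on the regular diet was -1.18 on the log2(RPKM + 1) scale (SE 0.20, limma adjusted p = 0.00906), by a test of the difference itself, and 0.504% of all genes tested were called in it. The adjusted p ranged from 0.00418 to 0.0953 over 26 alternatives and was above 0.05 in 2 of them, both of which left out Con replicate 3 and AOS replicate 3. None of the 10 fatty acid uptake and binding genes showed such a difference, with 0 at an unadjusted p under 0.05 in limma.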

How the results depend on the processing

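No fold change that is given changed direction under any alternative. Of the counts of called genes among the 10, under the alternatives other than removal of a single library, 55 stayed within 1.5 times and 15 moved. The count between HFD and Con went from 1 to 0 with library medians set equal, with only the groups compared, with Con replicate 3 and AOS replicate 3 left out, and with A10-FMT replicate 1 left out as well. The count between HFD+AOS and HFD went from 1 to 0 with no low-value filter, with only the groups compared, with Con replicate 3 and AOS replicate 3 left out, and with A10-FMT replicate 1 left out as well. Between the diets it went from 5 to 3 with no low-value filter and under both joint removals, which kept Slc27a2, Fabp2 and Lpl. Over all 6 groups it went from 5 to 3 with no low-value filter and to 2 under both removals. The cause was not tested. The diet comparison holds every group, so limiting the fit to the groups compared leaves it as it is.

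With the replicate number as a block, the count between HFD and Con went from 1 to 0, and the adjusted p of Slc27a2 was 0.0545. No pairing by number was seen over all genes together, a check that could not show a shared effect on a single gene. Whether the lost call reflects a weaker effect was not tested.

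With 1 library left out, counts ranged from 0 to 2 between HFD and Con, 0 to 2 between HFD+AOS and HFD, 3 to 5 between the diets, and 3 to 5 over all groups. They ranged from 0 to 1 between A10-FMT and HFD and between A10-FMT and Con-FMT, and stayed at 0 between Con-FMT and HFD, between AOS and Con, and in the interaction. Removal of a library from a group leaves it with 2 samples. Equal medians shifted Con replicate 1 most, by 0.10 on the log2 scale. RPKM hold no read numbers, so differences of Vldlr and Cd36, at a few RPKM, have the least support.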

Other observations

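The balance between related genes was also compared, as ratios of levels within a liver, which do not depend on the scaling of a library. The RPKM of Slc27a2 over that of Slc27a5, the liver FATP genes, was 1.04 to 1.13 in Con and 1.06 to 1.34 in AOS. It was 1.35 to 1.65 in HFD, 1.39 to 1.86 in HFD+AOS, 1.67 to 1.87 in Con-FMT and 1.66 to 1.73 in A10-FMT. All 12 HFD-fed livers were thus above all 6 regular-diet livers, but by a narrow margin. The nearest livers were HFD replicate 2 at 1.346 and AOS replicate 2 at 1.339. The RPKM of Fabp1 over that of Fabp2 was 156 to 164 in Con and 141 to 153 in AOS, against 104 to 128 in HFD, 97.8 to 148 in HFD+AOS, 72.8 to 117 in Con-FMT and 109 to 126 in A10-FMT. The diets overlapped for this ratio, since HFD+AOS reached into the range of AOS. These ratios were chosen after the values were seen and were not tested, and how many other gene pairs separate the diets was not counted.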
